A study of Homo sapiens with 12 samples.

Results

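The genes described here are aldo-keto reductases and other enzymes of the NRF2 antioxidant programme: AKR1B1, AKR1B10, AKR1C1, AKR1C3, NQO1, GCLC, GCLM, TXNRD1 and SRXN1. They were taken by symbol from Affymetrix Human Genome U133 Plus 2.0 arrays, and only probe sets annotated to a single symbol were used. Each gene was read from its probe set with the highest mean over the 12 arrays, with its other probe sets kept as a check. Of the 9 genes, 8 had such a probe set, out of 19775 genes that did, and all 8 were among the 14285 genes bright enough to be tested. AKR1B1 was not analysed here.

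The arrays profiled RCC4 and UMRC2, established human clear cell kidney cancer lines that lack a working VHL tumour suppressor. From each parent line 3 engineered lines had been made by stable expression under puromycin selection. The first carried the modified oestrogen receptor moiety ERT2 alone and is called EV, for empty vector. The other 2 carried FoxO1 or FoxO3 fused to ERT2, as versions with their AKT phosphorylation sites changed to alanine (FoxO1(TA)ERT2 and FoxO3(TA)ERT2), so that AKT cannot hold them out of the nucleus and the fusion is switched on by 4-hydroxytamoxifen (4OHT). By the labels all lines, EV included, carry ERT2, which the arrays did not clearly show in EV cells (given with the array checks). Each line received either 100 nM 4OHT or the ethanol vehicle over 12 h, with 1 array for each combination. Whether an engineered line is a clone or a pool, and which promoter drives the fusion, is not given in the sources used here. With a single array per combination, the 2 cell lines are the only replicates of a construct. An error or p-value for a response rests on how far RCC4 and UMRC2 differ in the effect of a construct. Their shared difference in response is taken out by a cell line term. The spread of a gene, with 2 residual degrees of freedom, is also drawn towards that of other genes (prior 5.43). The errors given can thus be smaller than the spread between the 2 lines, and they say nothing of repeat cultures.

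NRF2 (gene NFE2L2) is a transcription factor that KEAP1 marks for degradation in unstressed cells. Electrophiles and oxidants modify KEAP1, NRF2 then accumulates, pairs with a small MAF protein and binds antioxidant response elements, from which BACH1 with the same partners can displace it. Its classical targets make glutathione (GCLC and GCLM, the catalytic and modifier subunits of glutamate-cysteine ligase), keep thioredoxin reduced (TXNRD1, thioredoxin reductase), repair over-oxidised peroxiredoxins (SRXN1, sulfiredoxin), reduce quinones (NQO1) and reduce carbonyls and steroids with NADPH (the aldo-keto reductases). AKR1B10 and AKR1C1 to AKR1C3 are among the NRF2 targets that respond most in human cells, and FoxO factors are known for inducing a separate set of antioxidant genes.

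Promoter sequences from RefSeq (GRCh38.p14), the 250 bases before an annotated start, were matched for 8 of the 9 genes, in 11 windows; AKR1B10 was not matched. The windows shown are those of GCLM and SRXN1, the pair whose transcripts fell with the FoxO fusions, and, for contrast, those of TXNRD1 and NQO1, which were not called. Capitals mark a match to the core of the antioxidant response element, TGACNNNGC, searched on both strands. The GCLM window is chr1:93909431-93909680 (minus strand), that of SRXN1 chr20:653201-653450 (minus), those of TXNRD1 chr12:104215529-104215778 and chr12:104286782-104287031 (plus), and that of NQO1 chr16:69726561-69726810 (minus), all printed 5′ to 3′ in the direction of the gene.
GCLM: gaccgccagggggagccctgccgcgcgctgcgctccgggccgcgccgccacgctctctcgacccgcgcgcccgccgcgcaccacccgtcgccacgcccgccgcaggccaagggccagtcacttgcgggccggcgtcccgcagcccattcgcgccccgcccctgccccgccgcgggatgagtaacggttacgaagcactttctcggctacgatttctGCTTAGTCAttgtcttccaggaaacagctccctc
SRXN1: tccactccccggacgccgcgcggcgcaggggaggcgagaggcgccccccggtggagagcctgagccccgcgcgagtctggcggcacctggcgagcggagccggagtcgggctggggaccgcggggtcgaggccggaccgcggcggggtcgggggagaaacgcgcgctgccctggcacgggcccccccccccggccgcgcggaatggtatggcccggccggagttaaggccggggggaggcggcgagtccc
TXNRD1 upstream start: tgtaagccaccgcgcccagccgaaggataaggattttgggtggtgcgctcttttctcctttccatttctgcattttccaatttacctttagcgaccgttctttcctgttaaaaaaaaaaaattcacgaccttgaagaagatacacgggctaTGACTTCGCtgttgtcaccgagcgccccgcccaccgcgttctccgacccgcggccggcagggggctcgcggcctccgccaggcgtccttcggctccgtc
TXNRD1 downstream start: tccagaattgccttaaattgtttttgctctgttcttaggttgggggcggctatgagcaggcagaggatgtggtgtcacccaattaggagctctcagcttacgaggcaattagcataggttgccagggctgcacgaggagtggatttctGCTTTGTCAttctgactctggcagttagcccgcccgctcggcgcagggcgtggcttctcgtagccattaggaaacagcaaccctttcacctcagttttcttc
NQO1: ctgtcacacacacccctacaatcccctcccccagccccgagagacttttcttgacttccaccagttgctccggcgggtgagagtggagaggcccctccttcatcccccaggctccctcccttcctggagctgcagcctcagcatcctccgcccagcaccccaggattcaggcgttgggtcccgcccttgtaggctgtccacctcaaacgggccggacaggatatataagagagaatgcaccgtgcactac
The GCLM match begins 34 bases before the start, as printed, and reads on the opposite strand. TXNRD1 held 1 match before each start, at 99 bases on the same strand and at 102 bases on the opposite strand. The windows of SRXN1, NQO1, GCLC, AKR1C1, AKR1C3 and AKR1B1 held none, and among all 35116 tabulated windows of this length, 10.9% held at least 1. Bases further upstream were not searched, so a window without a match does not show that its gene lacks the element. An AP-1 site (TGANTCA, present in 6.57% of all windows) and the FoxO core (TGTTTAC, present in 2.98%) were found in none of the 11 windows, searched on both strands; the motifs were searched separately, and a TGACTCA followed by GC would match both the AP-1 and the response element pattern. GCLM, with a match, and SRXN1, without a match in its window, had FoxO3 responses beyond EV of −1.08 and −1.11 on the log2 scale. Whether a match goes with the response was not tested.

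The checks of the arrays bear on all results. ESR1 probe sets, which can read the ERT2 moiety, had a median log2 level under vehicle, over all 9 of them, of 5.28 in RCC4 EV and 4.90 in UMRC2 EV cells, below the array median of 6.67. Over the 5 of them that lay at least 2 log2 units above EV in every fusion line, and so were chosen on their values, the FoxO1 and FoxO3 lines read 9.22 and 12.49 if made from RCC4, and 12.29 and 13.23 if made from UMRC2, so RCC4 FoxO1 carried the least fusion transcript. By the median over the 9 probe sets, the ERT2 that the labels give for the EV lines was not seen above the array median. The highest single ESR1 probe set read 7.18 in RCC4 EV and 6.58 in UMRC2 EV cells. The lowest sat at the floor in both FoxO3 lines too, so the median cannot decide whether EV cells carry ERT2. EV is used here as labelled. Cyclin D1 (CCND1), a known FoxO-repressed gene, fell by 2.29 on the log2 scale (SE 0.21, limma adjusted p = 0.00454) and CDKN1B, which encodes the FoxO-induced inhibitor p27, rose by 1.11 (SE 0.14, adjusted p = 0.00688) with the FoxO fusions beyond EV. Among renal lineage markers PAX8 was bright in both lines (mean log2 level 12.55 in RCC4 and 12.47 in UMRC2 under vehicle), while 4 of 8 such markers passed the array median on every array, LHX1 stayed near 5.06 and 5.02, and NNMT was low in RCC4 (5.98) and high in UMRC2 (14.16). Markers of other cell types passed the array median on all arrays in 0 of 3 cases for leukocytes, 1 of 3 for endothelium, 2 of 4 for fibroblasts and 1 of 3 for hepatocytes. PECAM1 read 8.64 in RCC4 and 8.44 in UMRC2 under vehicle, COL1A1 9.75 and 9.41, and DCN 8.17 and 7.84, while CDH5 and COL3A1 sat at the floor of 4.20. The geometric mean of 18 hybridisation spike-in probe sets was 4212 to 4699 on 5 RCC4 arrays and 2239 to 2515 on the other 7, namely the 6 UMRC2 arrays and RCC4 FoxO3 with 4OHT (2515). The spike-in level and the cell line can therefore not be told apart under vehicle, and the RCC4 FoxO3 response spans both levels.

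Without 4OHT the 2 kidney cancer lines differed in all 8 genes, and RCC4 was the higher line each time. The difference was widest in the aldo-keto reductases, from 10.5-fold for AKR1C3 to 214.5-fold for AKR1B10, and narrowest in the glutamate-cysteine ligase subunits, 1.96-fold for GCLC and 1.74-fold for GCLM. The AKR1B10 fold rests on UMRC2 readings close to the array median, so its size is uncertain. All 8 genes were called (limma on the 6 vehicle arrays, adjusted p between 1.26e-09 and 1.33e-05), where 51.4% of all tested genes were called and 27.4% were called higher in RCC4. The median difference of the 8 genes was 1.94 on the log2 scale, against 0.0627 over all tested genes. The 3 replicates per line are the EV, FoxO1 and FoxO3 derivatives of a single parent line, so these p-values compare 2 lines and not kidney tumours. Levels are log2 intensities after quantile normalisation, and since probe sets differ in brightness they are compared within a gene only. As these are whole cultures, fewer cells expressing a gene and less RNA per cell cannot be told apart.

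**Figure D1:**
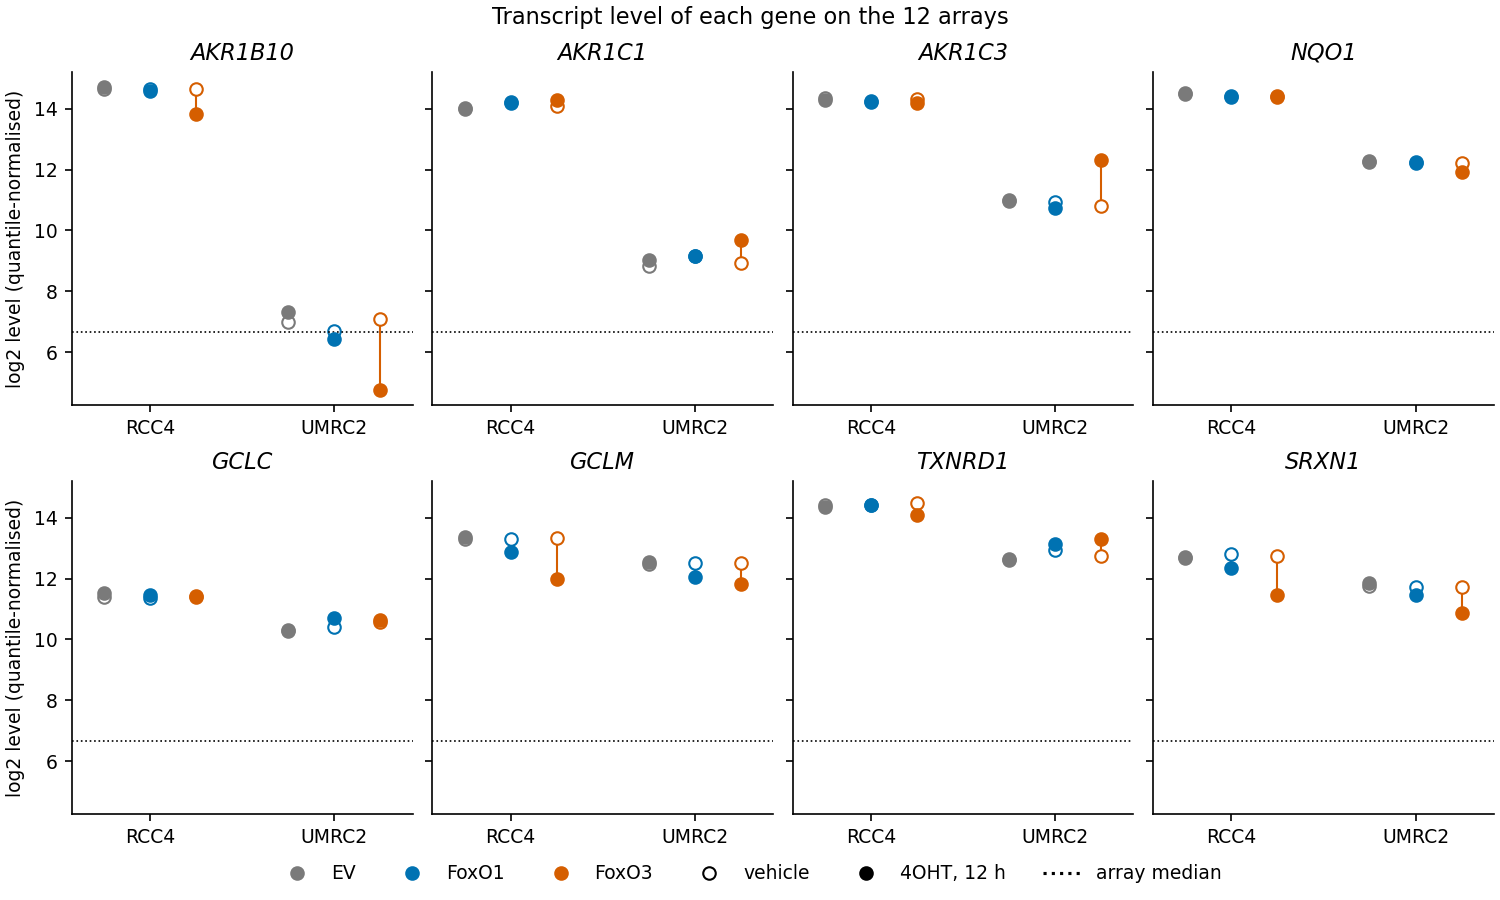
Log2 level (quantile-normalised intensity) of each of the 8 measured genes on the 12 arrays, RCC4 on the left and UMRC2 on the right of each panel; each point is 1 array, colour gives the construct, open circles are vehicle and filled circles 4OHT, and the dotted line is the array median. The RCC4 vehicle arrays lie above the UMRC2 vehicle arrays in every panel, with 14.65 to 14.67 against 6.68 to 7.07 for AKR1B10.

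AKR1B10, a retinal- and aldehyde-reducing enzyme that many NRF2-active tumours express strongly, read 14.67, 14.65 and 14.67 (log2 level) in RCC4 EV, FoxO1 and FoxO3 cells under vehicle, a mean of 14.66 ± 0.011 (SD, n = 3). In UMRC2 it read 6.99, 6.68 and 7.07, a mean of 6.91 ± 0.21 (SD, n = 3). The RCC4 readings lay in the top 0.0366 to 0.0421% of all 54613 probe sets of their arrays, while those of UMRC2 lay at 44.1 to 49.8%, close to the array median. The difference of 7.74 on the log2 scale (SE 0.10, adjusted p = 1.26e-09) thus runs from the dim middle to the bright end of the array.

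AKR1C1, a 20-alpha-hydroxysteroid dehydrogenase, read 14.00, 14.21 and 14.08 (log2 level) in the RCC4 EV, FoxO1 and FoxO3 lines and 8.83, 9.15 and 8.93 in the same lines of UMRC2, a difference of 5.12 (SE 0.09, adjusted p = 7.59e-09). AKR1C3, which makes testosterone and prostaglandin F from their ketone precursors, read 14.35, 14.24 and 14.32 in RCC4 and 10.99, 10.94 and 10.79 in UMRC2, 3.39 higher in RCC4 (SE 0.06, adjusted p = 7.59e-09). For both genes every RCC4 array lay far above every UMRC2 array. AKR1C1 is a near-identical copy of AKR1C2 and its probe sets may read both, so the split of signal between them is uncertain. The other 3 bright AKR1C1 probe sets gave differences of 5.27, 7.09 and 1.81, and the mean over all its probe sets 3.96, all called higher in RCC4. AKR1C2, outside the 9 genes, differed in the same direction by 6.14 (adjusted p = 2.00e-09).

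NQO1, the quinone reductase often used as a read-out of NRF2 activity, read 14.51, 14.43 and 14.42 in RCC4 against 12.26, 12.24 and 12.22 in UMRC2 (log2 level, vehicle), a 4.62-fold difference (log2 2.21, SE 0.04, adjusted p = 7.59e-09). Its other 2 probe sets gave 2.53 and 3.45 on the log2 scale. TXNRD1 was 3.16-fold higher in RCC4, at 14.43, 14.42 and 14.48 against 12.65, 12.94 and 12.76 (log2 difference 1.66, SE 0.07, adjusted p = 3.99e-07). Its second probe set, which is near the floor, gave a difference of −0.11 that was not called (adjusted p = 0.916). NQO1, like TXNRD1, showed no overlap between the lines' vehicle arrays on the probe set used.

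SRXN1 read 12.67, 12.81 and 12.73 in RCC4 against 11.77, 11.73 and 11.73 in UMRC2 (log2 level, vehicle), which is 0.997 higher (SE 0.05, adjusted p = 1.31e-06). GCLM read 13.31, 13.31 and 13.32 against 12.49, 12.52 and 12.53, a log2 difference of 0.80 (SE 0.04, adjusted p = 8.30e-07), and its other 2 probe sets gave 1.34 and 1.21. GCLC read 11.40, 11.38 and 11.44 against 10.32, 10.41 and 10.57, a log2 difference of 0.97 (SE 0.08, adjusted p = 1.33e-05). The groups did not overlap for any of SRXN1, GCLM and GCLC, although their differences were the smallest of the 8. How many of all tested genes also lacked overlap was not counted, and 51.4% of them were called between the lines. Absence of overlap, here and for the genes above, is thus not read as particular to the 8.

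The spike-in level moved with the cell line in this comparison. The RCC4 FoxO3 array with 4OHT has the UMRC2 spike-in level. On it AKR1B10 read 13.82, AKR1C1 14.29, AKR1C3 14.19, NQO1 14.39, TXNRD1 14.08 and GCLC 11.38, each above all 6 UMRC2 arrays. It is a single array that also differs in fusion and 4OHT, and its values are quantile-normalised. What the spike-in level adds to the line difference was not tested. GCLM (11.98) and SRXN1 (11.48) lay inside the UMRC2 range on that array. On the values as deposited, without quantile normalisation, the median of all tested genes was 0.767 higher in RCC4, and 88% of calls were higher in RCC4 against 53.3% after normalisation; the 8 genes were called higher in RCC4 there too, as in each of the 13 alternatives tried.

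The other genes of the pathway, 99 in 7 lists with 90 measured and 84 tested, were also more often higher in RCC4: 49 were called higher and 15 lower, and their median log2 difference was 0.552. Over all tested genes 27.4% were called higher and 24% lower, with a median of 0.0627, and these shares also stand beside each list below. The members of these lists were chosen with earlier results of these data known. Among other xenobiotic and carbonyl enzymes 11 of 13 tested were higher and 1 lower; EPHX1, the microsomal epoxide hydrolase, was higher by 4.32 (adjusted p = 1.26e-09), PTGR1, which reduces leukotriene and alkenal double bonds, by 4.06 (1.26e-09), and UGDH, which makes UDP-glucuronate, by 2.66 (3.64e-08). CYP4F11, a fatty acid hydroxylase, had a mean log2 level of 9.21 in RCC4 and sat at the floor of 4.20 on 2 of 3 UMRC2 arrays, so no fold is given. It reached the array median only in RCC4 and so entered the 13 tested genes through the line where it is high. CYP4F3, also tested, read 4.20 to 5.65 in UMRC2 and 6.39 to 7.05 in RCC4 under vehicle. The count of this list is to be read with that limit. Among other common NRF2 targets 8 of 13 were higher and 2 lower, led by OSGIN1 with a log2 difference of 4.20. OSGIN1 read 5.99 to 6.87 in UMRC2 under vehicle, around or below the array median, so the size of its difference is uncertain. Of 24 tested genes of glutathione supply and use, 12 were higher and 3 lower: SLC7A11, the cystine transporter subunit, was higher by 3.27 and ABCC2, a glutathione-conjugate exporter, by 3.23, whereas GSTP1, the pi-class glutathione transferase, was lower in RCC4 by 25.2-fold (log2 difference −4.65, adjusted p = 7.59e-09). Of 9 thioredoxin and peroxiredoxin genes 5 were higher, with thioredoxin itself (TXN) at 1.69, and 3 lower, with its inhibitor TXNIP at −2.25. NADPH supply had 5 of 7 higher, with PGD at 1.42 and TKT, transketolase, at 1.37, and 1 lower, IDH2, at −1.07. Of the other aldo-keto reductases 2 of 4 tested were higher, AKR1C2 and AKR7A3 (0.41).

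**Figure D2:**
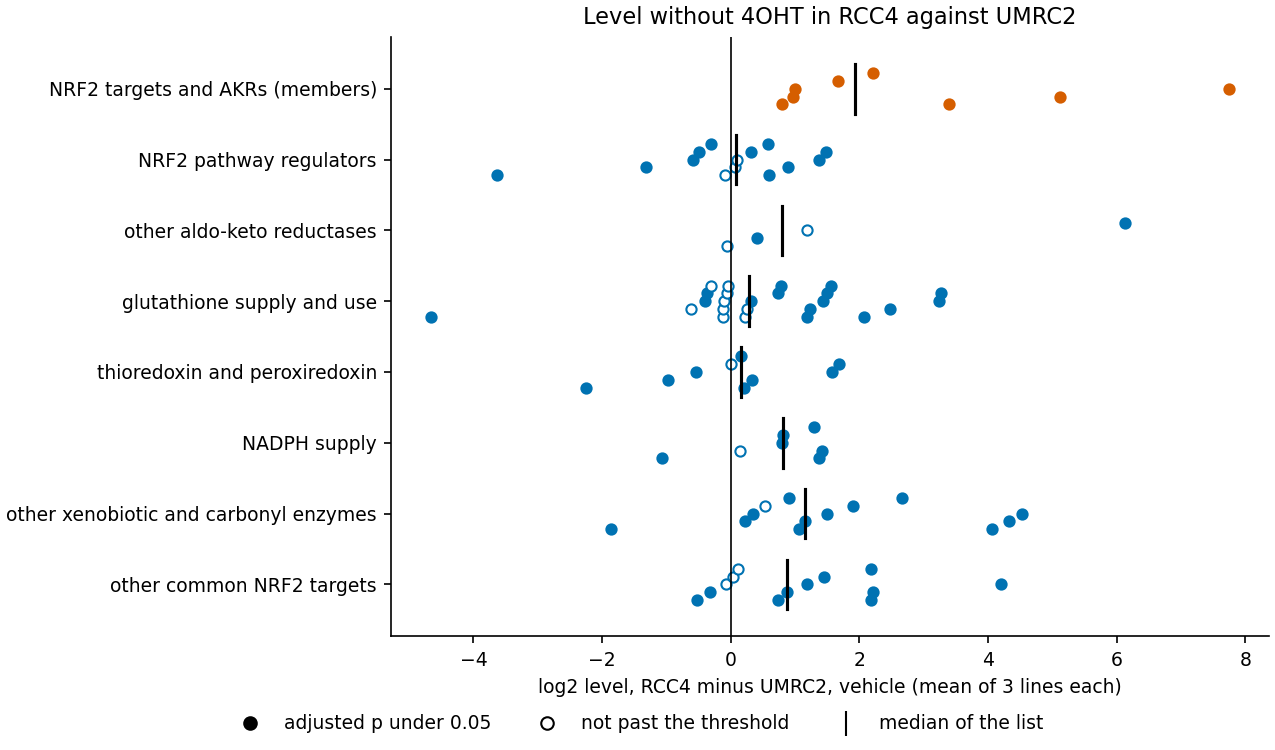
Log2 level of RCC4 minus UMRC2 under vehicle (means of 3 engineered lines each) for the measured genes, 1 point per tested gene, in rows for the 8 described genes and for each pathway list; filled points have an adjusted p under 0.05, the short black line is the median of a row, and the long vertical line at 0 is equal level. The 8 described genes all lie to the right of 0, from 0.80 for GCLM to 7.74 for AKR1B10, while each of several lists also holds genes to the left, down to −4.65 for GSTP1.

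The regulators of the pathway were split. Of 14 tested, 6 were called higher in RCC4 and 5 lower, with a median difference of 0.0825. Over all tested genes 27.4% were called higher and 24% lower, with a median of 0.0627. NFE2L2 was higher in RCC4, with a log2 difference of 0.32 (adjusted p = 0.00411), while KEAP1 was at −0.08 (adjusted p = 0.362). SQSTM1, whose protein p62 binds KEAP1 and is itself an NRF2 target, was higher by 1.48, MAFG, a small MAF partner, by 1.37, and BACH1 by 0.58 (adjusted p = 0.0226), while MAFF, another small MAF gene, was lower in RCC4 by 12.5-fold (log2 difference −3.64, adjusted p = 7.95e-07) and NFE2L3 by 2.49-fold. MAFF read 6.38 to 6.85 in RCC4 under vehicle, close to the array median, so the size of its fold is uncertain. The transcript of NFE2L2 thus differed less between the lines than did those of the 8 genes.

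Without a FoxO fusion the responses to 4OHT were small. In EV cells their responses (the change in log2 level from vehicle to 4OHT within a line) lay between −0.06 and 0.32. None of the 8 was called (limma on the 6 responses, adjusted p = 1 for each), none had an unadjusted p under 0.05, and over all 14285 genes 0 were called (0%) with 338 at an unadjusted p under 0.05. The widest EV response was that of the dim AKR1B10 probe set in UMRC2, from 6.99 to 7.31. Carrying a FoxO fusion without 4OHT went with differences from EV of −0.10 to 0.18 on the log2 scale, and again 0 of 8 were called, with 0% of all genes called and 1028 at an unadjusted p under 0.05. AKR1C1 was the 1 member of the 8 under that unadjusted limit, at 0.18 (SE 0.06, adjusted p = 0.671).

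With a FoxO fusion switched on, GCLM and SRXN1 fell in both cell lines, and with FoxO3 AKR1B10 fell as well. Averaged over FoxO1 and FoxO3, the response beyond that of EV was −0.79 on the log2 scale for GCLM (SE 0.16, adjusted p = 0.0283, 1.73-fold lower) and −0.77 for SRXN1 (SE 0.13, adjusted p = 0.0158, 1.71-fold lower). These were the 2 of 8 genes called, and none was called higher; of all tested genes 7.79% were called, 3.09% higher and 4.7% lower. The median of the 8 genes was −0.0264, beside −0.0497 over all tested genes. AKR1B10 was at −1.04 (SE 0.33, adjusted p = 0.103), AKR1C3 at 0.34, TXNRD1 at 0.14, AKR1C1 at 0.12, GCLC at 0.04 and NQO1 at −0.10, with adjusted p between 0.616 and 0.913 for these last 5. Both calls were lost on the values as deposited (median of all genes −0.306), with no filter on dim genes, with a constant prior variance, with FoxO1 and FoxO3 pairs taken as replicates and without either EV pair, and that of GCLM also with the mean of its probe sets and without the UMRC2 FoxO1 pair; the estimates for GCLM stayed between −1.04 and −0.63 and those for SRXN1 between −1.03 and −0.67 over 14 alternatives.

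**Figure D3:**
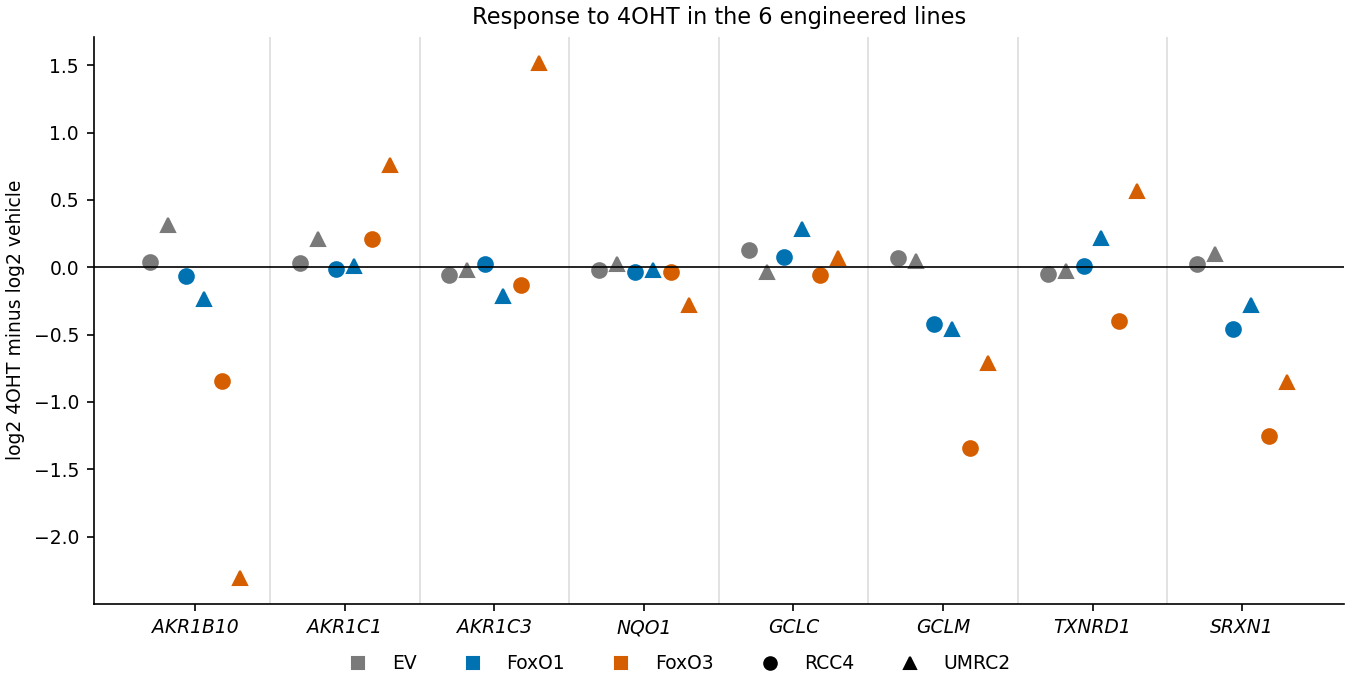
Response to 4OHT (log2 level with 4OHT minus log2 level with vehicle) of the 8 genes in the 6 engineered lines, 1 point per line; circles are RCC4, triangles are UMRC2, colour gives the construct, and the horizontal line is 0. GCLM and SRXN1 are below −0.2 in all 4 FoxO lines and between 0.02 and 0.10 in the EV lines, and the lowest point is AKR1B10 in UMRC2 FoxO3 at −2.31.

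With FoxO3 3 genes were called, and with FoxO1 none. Beyond EV, SRXN1 was lower by 2.17-fold (log2 −1.11, SE 0.15, adjusted p = 0.00373), GCLM by 2.12-fold (−1.08, SE 0.18, adjusted p = 0.00814) and AKR1B10 by 3.37-fold (−1.75, SE 0.38, adjusted p = 0.0200). These 3 of 8 were called lower and none higher, where 16.6% of all tested genes were called, 6.6% higher and 10% lower. With FoxO1 0 of 8 were called, where 0.084% of all tested genes were (12 genes, with 1431 at an unadjusted p under 0.05); GCLM at −0.50 (SE 0.18, adjusted p = 0.428) and SRXN1 at −0.43 (SE 0.15, adjusted p = 0.391) were the 2 genes with an unadjusted p under 0.05. The FoxO1 and FoxO3 comparisons share their EV arrays. The FoxO1 lines also carried less fusion transcript. Over all 9 ESR1 probe sets the median log2 level under vehicle was 7.85 in RCC4 FoxO1 and 9.77 in RCC4 FoxO3. In UMRC2 it was 9.09 and 10.33. Which FoxO was fused and how much of it was made can therefore not be told apart. Tested directly, FoxO3 against FoxO1 differed for SRXN1 (−0.68, SE 0.15, adjusted p = 0.0433), 1 of 8 where 5.82% of all genes were called (2.17% higher and 3.65% lower), and did not pass for AKR1B10 (−1.42, SE 0.38, adjusted p = 0.0742) or GCLM (−0.58, SE 0.18, adjusted p = 0.113). The 3 FoxO3 calls were lost with no filter on dim genes and with a constant prior variance. On the values as deposited, where the median of all genes was −0.424 and 21.6% of calls were higher against 39.7% after normalisation, GCLM was at −1.45 (adjusted p = 0.137), SRXN1 at −1.47 (adjusted p = 0.138) and AKR1B10 at −1.99 (adjusted p = 0.0277). The SRXN1 difference between FoxO3 and FoxO1 was lost under 6 of 7 changed settings and without any 1 of 3 line pairs (RCC4 FoxO1, RCC4 FoxO3 or UMRC2 FoxO1), with adjusted p up to 0.882.

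**Figure D4:**
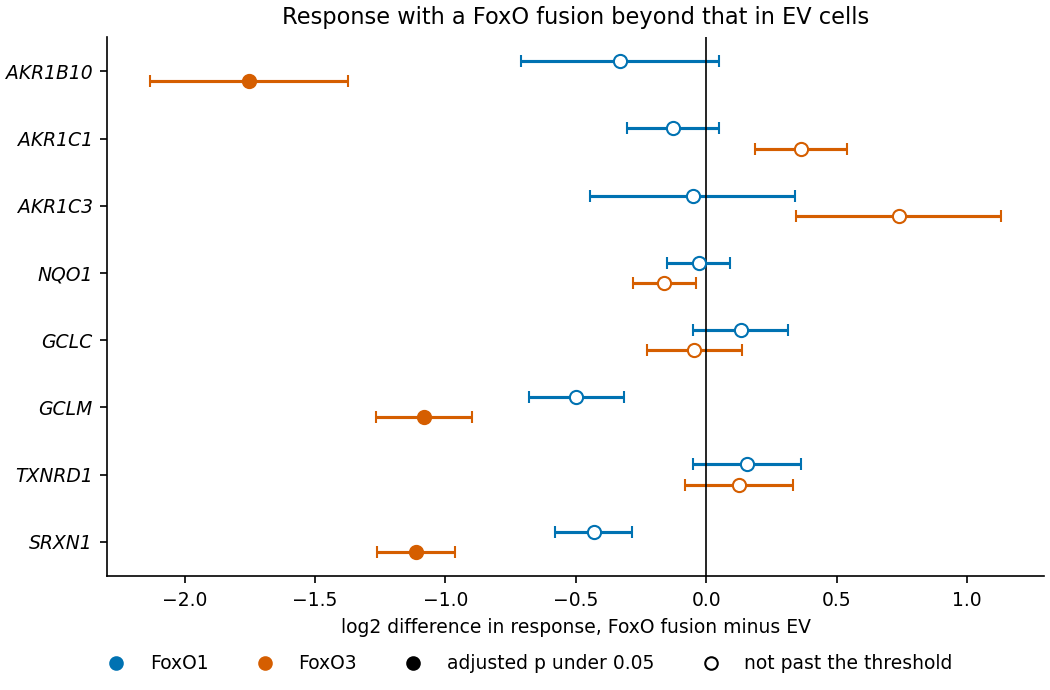
Response with a FoxO fusion minus the EV response (log2) for the 8 genes, for FoxO1 and for FoxO3; points are limma estimates over the 2 cell lines, bars are 1 SE, filled points have an adjusted p under 0.05 and the vertical line is 0. The filled points are the FoxO3 values of SRXN1, GCLM and AKR1B10, at −1.11, −1.08 and −1.75.

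Of the subunits that make glutathione's precursor, GCLM was called and GCLC was not. GCLM, which raises the affinity of the ligase for its substrate, went from 13.31 to 13.38 (log2 level, vehicle to 4OHT) in RCC4 EV cells, from 13.31 to 12.88 in RCC4 FoxO1 and from 13.32 to 11.98 in RCC4 FoxO3. In UMRC2 it went from 12.49 to 12.54 in EV, from 12.52 to 12.06 in FoxO1 and from 12.53 to 11.82 in FoxO3. Its 4OHT level was thus below the vehicle level in the 4 FoxO lines and above it in both EV lines, and the FoxO3 arrays were the lowest of each cell line. The other 2 GCLM probe sets had the same direction in all 4 FoxO lines, with FoxO3 responses beyond EV of −0.95 (adjusted p = 0.0312) and −0.97 (adjusted p = 0.0316); for the mean of both fusions they gave −0.84 (adjusted p = 0.0501) and −0.65 (adjusted p = 0.106), which did not pass.

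GCLC, the catalytic subunit, which carries the active site, went from 11.40 to 11.53, from 11.38 to 11.46 and from 11.44 to 11.38 in RCC4 EV, FoxO1 and FoxO3 cells, and from 10.32 to 10.29, from 10.41 to 10.70 and from 10.57 to 10.64 in UMRC2. For GCLC the vehicle and 4OHT arrays overlapped within each cell line. Its FoxO3 response beyond EV was −0.05, with a 95% confidence interval of −0.47 to 0.38, which does not reach the GCLM estimate. The other bright GCLC probe set gave −0.15 in RCC4 and 0.38 in UMRC2 for FoxO3 beyond EV, so no direction is read for GCLC.

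SRXN1, which reduces over-oxidised peroxiredoxins back to their active form, went from 12.67 to 12.70 in RCC4 EV cells (log2 level, vehicle to 4OHT), from 12.81 to 12.35 in RCC4 FoxO1 and from 12.73 to 11.48 in RCC4 FoxO3. In UMRC2 it went from 11.77 to 11.87 in EV, from 11.73 to 11.45 in FoxO1 and from 11.73 to 10.88 in FoxO3. The order EV, FoxO1, FoxO3 from smallest to largest fall was the same in both cell lines, as for GCLM. Fusion transcript was also lower in the FoxO1 than in the FoxO3 lines, so the kind of FoxO and its amount cannot be told apart. The gene has a single probe set. Beyond EV, SRXN1 changed by −0.49 with FoxO1 and −1.28 with FoxO3 in RCC4 and by −0.38 and −0.95 in UMRC2, beside −0.49 and −1.41, and −0.51 and −0.76, for GCLM.

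TXNRD1 did not move in a common direction. It went from 14.43 to 14.37, from 14.42 to 14.43 and from 14.48 to 14.08 in RCC4 EV, FoxO1 and FoxO3 cells. In UMRC2 it went from 12.65 to 12.62, from 12.94 to 13.15 and from 12.76 to 13.32. The FoxO3 response beyond EV was −0.34 in RCC4 and 0.59 in UMRC2, and over both lines 0.12 with an interval of −0.36 to 0.61 (adjusted p = 0.749). Without the RCC4 FoxO3 pair, whose arrays differ in spike-in level, TXNRD1 was called higher with FoxO3, at 0.55 (adjusted p = 0.0319), a value that rests on UMRC2 FoxO3 alone.

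AKR1B10 went from 14.67 to 14.71 in RCC4 EV cells (log2 level, vehicle to 4OHT), from 14.65 to 14.58 in FoxO1 and from 14.67 to 13.82 in FoxO3. In UMRC2, where it is dim, it went from 6.99 to 7.31 in EV, from 6.68 to 6.44 in FoxO1 and from 7.07 to 4.77 in FoxO3, the last of these close to the floor of 4.20. FoxO3 with 4OHT was the lowest array of each cell line, and FoxO1 changed by −0.07 and −0.24 from vehicle to 4OHT in RCC4 and UMRC2. The FoxO3 response beyond EV was −0.88 in RCC4 and −2.62 in UMRC2. It was called with and without the RCC4 FoxO3 pair (−2.51 without it, adjusted p = 0.00139, a value that rests on the UMRC2 pair that ends near the floor) but not without the UMRC2 EV pair (−1.20, adjusted p = 0.12), and without the UMRC2 FoxO3 pair it was −0.995 (adjusted p = 0.0362).

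AKR1C3 was far above its vehicle level with 4OHT in a single engineered line. It lay between 14.19 and 14.35 on the RCC4 arrays (log2 level), and in UMRC2 it went from 10.99 to 10.97 in EV, from 10.94 to 10.73 in FoxO1 and from 10.79 to 12.31 in FoxO3. The UMRC2 FoxO3 array with 4OHT was thus well above the other 5, which spanned 10.73 to 10.99, while RCC4 FoxO3 changed by −0.07 beyond EV. Over both lines the FoxO3 value was 0.74 (SE 0.39, adjusted p = 0.262), which did not pass; without the RCC4 FoxO3 pair it was 1.61 (adjusted p = 0.00136), again resting on a single UMRC2 pair. AKR1C1 went from 14.00 to 14.03, from 14.21 to 14.19 and from 14.08 to 14.29 in RCC4 and from 8.83 to 9.04, from 9.15 to 9.16 and from 8.93 to 9.69 in UMRC2. Its FoxO3 value was 0.36 (SE 0.18, adjusted p = 0.221), and its 4 bright probe sets differed in sign: in UMRC2 FoxO3 beyond EV they gave 0.55, −0.69, 0.84 and −0.54. AKR1C2, whose transcript is nearly the same, changed by −0.52 beyond EV in that line, so no direction can be read for AKR1C1.

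NQO1 varied little in RCC4, where all 6 arrays lay between 14.39 and 14.51 (log2 level). Its RCC4 vehicle readings lay in the top 0.11 to 0.163% of all 54613 probe sets. Whether a place so near the top of the scale limits the changes seen was not tested. In UMRC2 it went from 12.26 to 12.28 in EV, from 12.24 to 12.23 in FoxO1 and from 12.22 to 11.94 in FoxO3, the lowest of the 6. The FoxO3 response beyond EV was −0.16 over both lines with an interval of −0.44 to 0.12 (adjusted p = 0.432). Its other 2 probe sets were also below 0 in each of the 4 FoxO lines, with values between −0.48 and −0.06.

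No difference between the cell lines in the FoxO response passed its own test. The contrast of RCC4 with UMRC2 called 0 of 8, with none at an unadjusted p under 0.05, and 0% of all genes, with 338 at an unadjusted p under 0.05. The widest values were 1.10 for AKR1B10 (SE 1.24), −0.67 for AKR1C3 (SE 0.96) and −0.56 for TXNRD1 (SE 0.37), each with an adjusted p of 0.9996 and an interval that spans 0. As FoxO1 and FoxO3 stand as replicates within a line in this test, its errors are wide where the 2 fusions differ. In RCC4 under vehicle AKR1B10, AKR1C3 and TXNRD1 lay within the top 0.297% of all 54613 probe sets. What a place so near the top of the scale does to their responses was not tested.

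Across the rest of the pathway the FoxO responses were mixed. Of the 84 tested genes, 4 were called higher and 6 lower for FoxO against EV (median −0.0984), and 6 higher and 13 lower for FoxO3 against EV (median −0.149); with FoxO1 alone 0 were called. Over all tested genes 3.09% were called higher and 4.7% lower for FoxO, and 6.6% and 10% for FoxO3, so these counts are near the background and no pattern of the pathway is read from them. All 4 genes called higher for FoxO against EV were among the 14 regulators, where 3.09% of all tested genes were called higher. The lists were chosen with earlier results of these data known, so this count is not read as a trait of the regulators. BACH1, the repressor that competes with NRF2, rose by 1.65 on the log2 scale (SE 0.20, adjusted p = 0.00688), with responses beyond EV of 1.42 and 2.12 in RCC4 and 1.23 and 1.84 in UMRC2 for FoxO1 and FoxO3. MAFF, a small MAF without an activation domain of its own, rose by 2.00 (SE 0.32, adjusted p = 0.0138), from 6.85 to 10.25 in RCC4 FoxO3 cells and from 10.37 to 13.08 in UMRC2 FoxO3 cells; its other bright probe set gave 0.824, and the mean of its probe sets 1.41 (adjusted p = 0.0544), which did not pass. NFE2L1, an NRF2 relative that controls proteasome genes, rose by 0.97 (adjusted p = 0.0128) and FBXW11, a subunit of a ubiquitin ligase that acts on NRF2, by 0.66 (adjusted p = 0.0487).

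NFE2L2 itself was at 0.40 (adjusted p = 0.15) for both fusions and was called with FoxO3, at 0.61 (adjusted p = 0.0475). It went from 12.64 to 12.94 in RCC4 FoxO3 and from 12.19 to 13.15 in UMRC2 FoxO3 cells (log2 level); its other bright probe set gave 1.13 for FoxO3, while the mean over all its probe sets, dim ones included, gave −0.19 (adjusted p = 0.672). KEAP1 was at −0.32 (adjusted p = 0.258) and MAFG at 0.26 (adjusted p = 0.737), neither called. MAFK was not analysed here.

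The lower calls for FoxO against EV were spread over 4 lists. Over all tested genes 4.7% were called lower and 3.09% higher, and for FoxO3 against EV 10% and 6.6%. These shares stand beside each count below, and no pattern is read from the count of a list. SLC3A2, the heavy chain that carries the cystine transporter to the membrane, was at −0.81 on the log2 scale (SE 0.16, adjusted p = 0.0247), and ABCC2 was at −1.46 (SE 0.30, adjusted p = 0.0309), falling from 9.30 to 6.50 in UMRC2 FoxO3 cells. These were 2 of 24 genes of glutathione supply and use. TXNIP was at −1.07 (adjusted p = 0.0128), 1 of 9 thioredoxin and peroxiredoxin genes, and TKT, of the pentose phosphate pathway that supplies NADPH, at −0.69 (adjusted p = 0.0461), 1 of 7. TRIM16, a ubiquitin ligase, was at −1.23 (SE 0.20, adjusted p = 0.0138) and SLC6A6, the taurine transporter, at −0.85 (adjusted p = 0.0362), 2 of 13 other common NRF2 targets. None of 13 other xenobiotic and carbonyl enzymes and none of 4 other aldo-keto reductases was called; with FoxO3, CBR3, a carbonyl reductase, rose by 2.16 (adjusted p = 0.00855) and BLVRB was at −0.80 (adjusted p = 0.0332). All 10 calls for FoxO against EV were lost with no filter on dim genes, with a constant prior variance and on the values as deposited. Leaving out 1 pair gave 1 to 6 higher and 0 to 12 lower calls, with 1 higher without RCC4 EV, 2 higher and 0 lower without UMRC2 EV, 3 lower without UMRC2 FoxO1 and 12 lower without UMRC2 FoxO3.

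**Figure D5:**
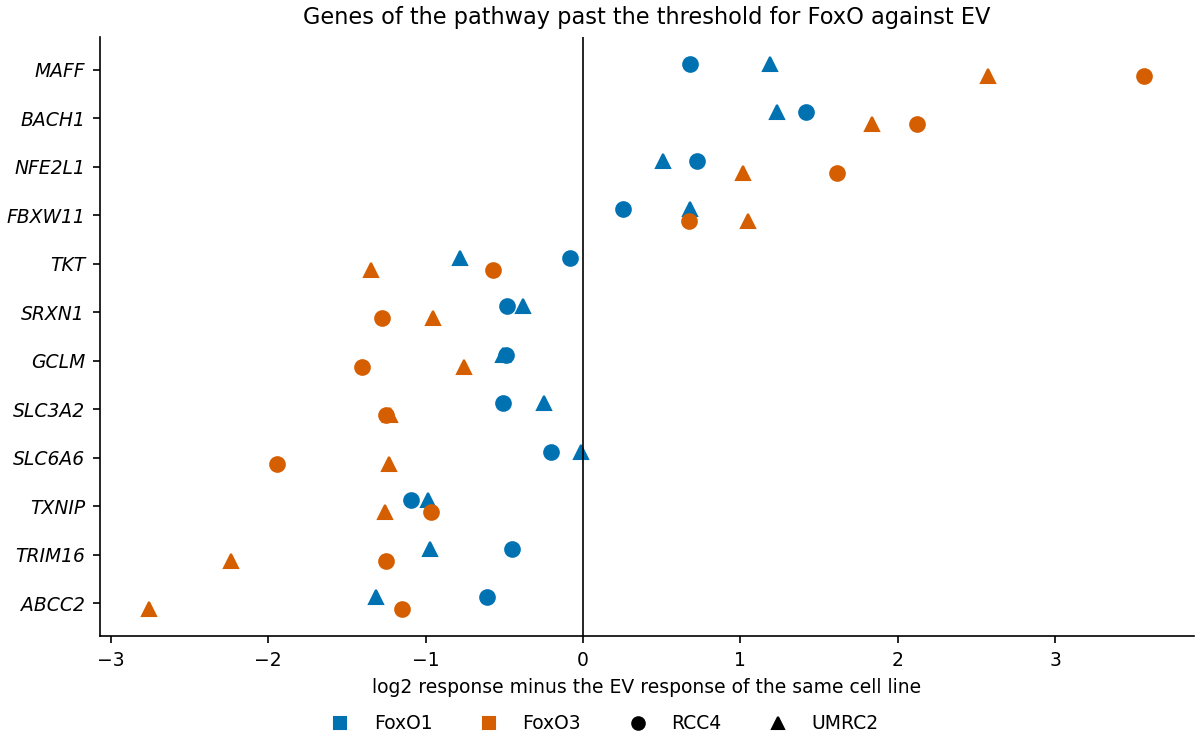
Response to 4OHT minus the EV response of the same cell line (log2) for the pathway genes called for FoxO against EV, GCLM and SRXN1 among them, 1 point for each of the 4 FoxO lines; circles are RCC4, triangles are UMRC2, colour gives the fusion, and the vertical line is 0. MAFF, BACH1, NFE2L1 and FBXW11 lie to the right of 0, with BACH1 at 1.23 to 2.12, and ABCC2, TRIM16 and SLC3A2 lie to the left, with ABCC2 down to −2.75.

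GCLM and SRXN1 followed each other closely over the 12 arrays. After the mean of each cell line was taken away, their Pearson correlation was 0.976, the highest among the 8 genes, beside 0.911 for AKR1B10 with NQO1 and 0.768 for AKR1C1 with AKR1C3, and AKR1B10 ran against AKR1C1 at −0.914. GCLC and GCLM, the 2 subunits of a single enzyme, were at −0.241. These values describe 12 arrays that share constructs, treatments and 2 parent lines, and no test was made. Each gene is read from 1 probe set here. The values for AKR1C1 are limited by its other bright probe sets, which differ in sign. Those for AKR1B10 are limited by its reading near the floor in UMRC2 FoxO3 cells with 4OHT. Of 14284 other tested genes, the 3 most like SRXN1 were RCC2 (0.995), DNAJA3 (0.994) and PPRC1 (0.994), and the 3 most like GCLM were KBTBD6 (0.993), COL4A1 (0.993) and FBRSL1 (0.992). The 3 most like AKR1B10 were TRMT5 (0.991), RBBP4 (0.98) and HNRNPK (0.979), and those most like AKR1C3 were TGIF1 (0.959), PARN (0.951) and ATP6V1B2 (0.938). For the other 4 genes the highest values were 0.935 for AKR1C1 with LYSMD3, 0.95 for NQO1 with EEF1D, 0.954 for TXNRD1 with ALAS1, and 0.908 for GCLC with KLHDC10.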

How the data were processed

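Total RNA of 12 cultures was hybridised to Human Genome U133 Plus 2.0 arrays, 1 per combination of line, construct and treatment, with groups taken from the sample labels. The deposited values are linear intensity values summarised by MAS5, per the submitters' processing notes; its version and scaling target are not given in the sources used here. Array medians ranged from 71.1 to 138.7, and the number of arrays limits the precision.

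From these, 62 control probe sets were dropped, the rest quantile-normalised (limma 3.58.1, R 4.3.3), values under the 20th percentile (18.44) raised to it, and log2 taken. Platform annotation, with symbols updated to RefSeq GRCh38.p14 by gene identifier, gave 1 symbol to 41091 probe sets, several to 1801 and none to 11721. A gene was its probe set with the highest mean, and was tested if it reached the array median in 2 or more arrays (14285 genes).

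The 6 responses were fitted with construct and cell line as terms (2 residual degrees of freedom, prior 5.43), the vehicle levels of RCC4 and UMRC2 as 3 against 3 (4 residual degrees of freedom, prior 4.22), all with a mean-variance trend and Benjamini-Hochberg adjustment over all tested genes at 0.05. The fits were tested on simulated data. All genes of the set are named; of the pathway lists, NFE2L2, KEAP1, BACH1 and small MAF genes always, and otherwise up to 4 called genes a list and comparison by size. The members and lists were chosen with earlier results of these data known. Alternatives changed the scaling, floor, filter, probe set rule, prior, line term and replicates, or left out a pair.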

Additional observations from a re-analysis of the deposited data

Results flagged for a closer look

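GCLC is given because its response to the FoxO fusions beyond EV had opposite signs in the 2 cell lines: −0.05 and −0.19 on the log2 scale in RCC4 for FoxO1 and FoxO3, and 0.32 and 0.10 in UMRC2. The other bright probe set gave −0.18 and −0.15 in RCC4 and 0.02 and 0.38 in UMRC2. A dim probe set did not share these signs, with −2.99 and 0.79 in RCC4 and 0.14 and −0.61 in UMRC2. On the probe set used, the difference of RCC4 minus UMRC2 was −0.33 (limma, SE 0.46, adjusted p = 0.9996), so the test of the difference itself did not pass.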

How the results depend on the processing

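The vehicle difference between RCC4 and UMRC2 called all 8 genes in each of 13 alternatives, and the comparisons of 4OHT in EV, of FoxO1 against EV, of the fusions under vehicle and of the FoxO response between lines called 0 of 8 in each alternative run. The responses depended on the settings. For FoxO against EV (2 of 8 called), 0 were called as deposited, with no filter, with a constant prior variance and with FoxO pairs as replicates, and 1 with the mean of probe sets; leaving out a pair gave 0 to 4. For FoxO3 against EV (3 called), 1 was called as deposited and 0 with no filter or a constant prior variance; leaving out a pair gave 2 to 5. For FoxO3 against FoxO1 (1 called), 0 were called as deposited, with no filter, with the mean of probe sets, with a constant prior variance and with no line term; leaving out a pair gave 0 to 2. The 4 higher pathway calls for FoxO against EV became 0 as deposited, with no filter, with a constant prior variance and with FoxO pairs as replicates and 1 with the mean of probe sets (1 to 6 without a pair), and the 6 lower calls became 0 under the same settings other than the mean of probe sets (0 to 12 without a pair). For FoxO3 against EV the 6 higher and 13 lower pathway calls became 1 and 3 as deposited, and 0 and 0 with no filter or a constant prior variance (5 to 8 higher and 5 to 17 lower without a pair, the 5 lower without UMRC2 EV). Under vehicle, the 15 pathway genes lower in RCC4 became 5 as deposited (12 to 15 without a line, and 45 to 50 higher). NFE2L2 with FoxO3 turned to −0.19 with the mean of probe sets, and TXNRD1 under vehicle to −0.11 on its dim probe set. The cause of these changes was not tested. Each response is already paired, 4OHT against vehicle within an engineered line; no replicate block was added because the labels carry no replicate numbers.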
